A study of Mesocricetus auratus with 8 samples.

Results

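The genes described here encode the myosin light chains of striated muscle and of smooth muscle and non-muscle cells, in satellite cells (SCs, the stem cells of skeletal muscle) of the Syrian hamster before and after cold exposure. Members were the rows of the deposited table whose symbol was in a list of 10 light chain genes. Of these, 8 had a row with values, among 17590 genes with values in all, and Myl12a and Myl12b, the regulatory light chains of non-muscle cells, matched no row by symbol and were not analysed here. The list held 5 light chains of the sarcomere (Myl1, Myl2, Myl3, Myl4 and Mylpf), all with a row, and 5 of non-muscle or smooth muscle myosin, of which Myl6, Myl6b and Myl9 had a row.

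SCs of WT genotype came from hindlimb muscles of sexually mature male hamsters (Slc:Syrian) and were enriched by preplating. Control libraries (0 h, n = 4) were taken after 48 h of culture and a further 24 h in growth medium with 100 mM HEPES, all at 37°C, and cold libraries (n = 4) after the same culture followed by 24 h at 4°C without medium change. The titles place all controls on day 3, whereas their treatment labels give 3, 4, 5 and 6 days at 37°C for replicates 1 to 4. The study's schedule for these libraries, 48 h and then 24 h at 37°C, and the column names (D3) go with the titles. Why the treatment labels differ could not be settled here. By the titles, cold libraries were collected 24 h later than controls and none of the controls was kept at 37°C for those 24 h, so that cold and the added time cannot be told apart. By the treatment labels, controls 2 to 4 were in culture, all at 37°C, for as long as the cold libraries or longer. The study calls the libraries of a group biological replicates, but neither the labels nor its methods say whether they came from separate animals, isolations or cultures, so p-values measure the spread between these libraries, which may be technical.

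Muscle and non-muscle myosin II are built from a pair of heavy chains, and the neck of each heavy chain binds an essential and a regulatory light chain. In the sarcomere the light chains stiffen the lever arm and tune the force and speed of the motor. In smooth muscle and non-muscle cells, phosphorylation of the regulatory light chain switches the motor on, by kinases such as MYLK, and a phosphatase containing PPP1CB switches it off. When SCs leave the proliferative state and differentiate, they switch on sarcomeric light chains, while cytoskeletal light chains are made by dividing and differentiated cells alike. Myl4, known from the adult atrium, and Mylpf and Myl1, the light chains of fast fibres, are all made in developing skeletal muscle.

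The depth was 16530747 to 18533801 expected counts per library. The first principal component of all genes (54.5% of the variance) set replicates 1 and 2 of either group apart from replicates 3 and 4, and the second (17.9%) separated cold from control. Libraries of the same number deviated together from their group means, and replicates 1 and 2 did so nearly as closely across numbers. Each edgeR result was therefore fitted without and with the replicate number as a block, and the blocked value is given where it changed the call. SC and myoblast markers were present in every library, with Pax7 at 10.8 to 16.1 TPM (a level corrected for gene length and depth), and of 4 leukocyte markers Ptprc and Adgre1 lay at 0 to 0.03 TPM, Cd68 at 23.3 to 52.0 TPM and Cd14 at 15.0 to 49.0 TPM.

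Sarcomeric light chain mRNA was lower after 24 h at 4°C, whereas Myl6 and Myl9 of the non-muscle group stayed within 2% of their control means. Myl4 stood at 17.1% of its control mean, Myl1 at 24.6%, Myl3 at 25.5% and Mylpf at 45.1%. Among non-muscle members only Myl6b was lower in every pair, at 65.9% of control. Myl4 alone passed both thresholds of the unblocked edgeR test, an absolute log2 fold change of 1 or more with a Benjamini-Hochberg adjusted p below 0.05, against 0.0400% of the 12506 genes tested called lower and 0% called higher. With the replicate block, Myl1, Myl3, Myl4 and Mylpf passed, which is 4 of the 7 members tested and all 4 of the tested sarcomeric members, against 0.808% of all genes called lower and 0.0400% called higher. The median log2 fold change of the 4 tested sarcomeric members was −2.00 and that of the 3 non-muscle members −0.01, against 0.0071 over all genes tested.

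**Figure D1:**
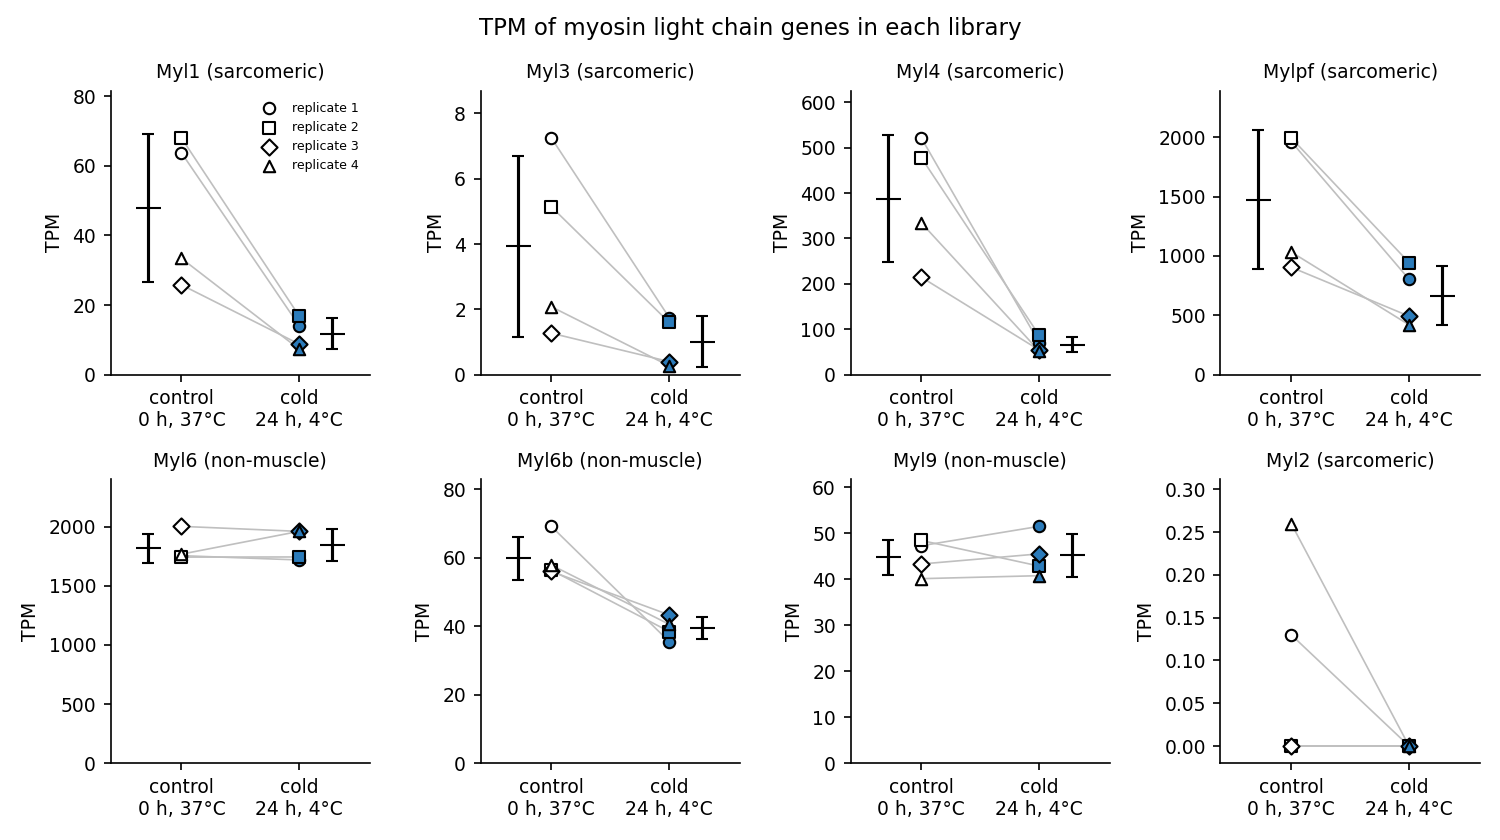
TPM of each member (y axis, linear, from 0 except for Myl2, whose axis starts just below 0) in the 4 control and 4 cold libraries. Symbols mark the replicate number, grey lines join libraries of the same number, and bars give the mean and SD, omitted for Myl2, which was at or under 3 counts everywhere. All 4 lines of Myl1, Myl3, Myl4, Mylpf and Myl6b go down, and those of Myl6 and Myl9 go both ways.

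Myl4 encodes the essential light chain of atrial and embryonic muscle. It stood at 522, 478, 215 and 334 TPM in control replicates 1 to 4 and at 70.9, 87.0, 54.5 and 52.2 TPM in cold replicates 1 to 4. The lowest control library was more than 2 times as high as the highest cold library, and the groups did not overlap. The mean fell from 387 ± 140.1 to 66.1 ± 16.2 TPM (SD, n = 4 each), by a log2 fold change of −2.57 ± 0.31 (SE) with a 95% interval of −3.26 to −1.88 and an edgeR adjusted p of 0.0301. Each cold library held 13.6%, 18.2%, 25.4% and 15.6% of the control library of its number. The exact two-sided permutation test of the TPM means gave p = 0.0286, the smallest that 4 against 4 libraries allow. Leaving out any library other than control replicate 3 moved the unblocked edgeR adjusted p to between 0.0729 and 0.177, past the threshold, and without control replicate 3 it was 0.00626. In the fit with the block the log2 fold change was −2.53 ± 0.09, with an adjusted p of 2.02e-12.

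Among all 17590 genes with values, ranked by TPM within a library, Myl4 stood at place 269 to 694 in the controls and at place 1775 to 2837 in the cold. No other sarcomeric essential light chain was within reach of it at either temperature. It supplied 88.5 ± 1.54% of the summed TPM of Myl1, Myl3 and Myl4 in controls and 84.3 ± 2.59% in the cold.

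Myl1, the essential light chain of fast fibres, was at 63.7, 68.0, 25.8 and 33.4 TPM in the controls and at 14.0, 16.8, 8.77 and 7.32 TPM in the cold. Both groups had their higher values in replicates 1 and 2, and the groups did not overlap. The means were 47.7 ± 21.2 and 11.7 ± 4.45 TPM (SD, n = 4 each), and the exact two-sided permutation p was 0.0286. Its log2 fold change of −2.04 ± 0.39 (95% interval −2.91 to −1.16) did not pass in the unblocked edgeR fit (adjusted p = 0.137), passed in DESeq2 (adjusted p = 0.00211) and passed with the block (−2.02 ± 0.10, edgeR adjusted p = 6.25e-11). The cold library of a pair held between 21.9% and 34.0% of its control.

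Myl3, the essential light chain of slow fibres and the ventricle, was near the limit of what this depth can measure. Its expected counts were 54, 40, 9 and 16 in the controls and 14, 12, 3 and 2 in the cold, and a count of 3 or fewer was taken as the floor of detection, so that cold replicates 3 and 4 lay at or under it. The groups overlapped, since control replicate 3 was below cold replicates 1 and 2. In TPM the means were 3.94 ± 2.77 and 1.01 ± 0.778 (SD, n = 4 each; exact two-sided permutation p = 0.114). The log2 fold change was −1.97 ± 0.69 with an edgeR adjusted p of 0.574 without the block, and −1.98 ± 0.27 with an adjusted p of 5.68e-05 with it.

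Mylpf encodes the regulatory light chain of fast skeletal muscle and was the most abundant sarcomeric light chain in all 8 libraries. It was at 1963, 1994, 905 and 1033 TPM in the controls and at 804, 944, 493 and 419.9 TPM in the cold. Each cold library lay below the control of its number, at 40.9%, 47.3%, 54.5% and 40.6% of it, but cold replicate 2 lay above control replicate 3, so the groups overlapped. Means of 1474 ± 586 and 665 ± 249.7 TPM (SD, n = 4 each) gave an exact two-sided permutation p of 0.0571. The log2 fold change of −1.16 ± 0.35 (95% interval −1.96 to −0.37) had an edgeR adjusted p of 0.445, and with the block it was −1.15 ± 0.05 (interval −1.26 to −1.03) with an adjusted p of 5.11e-11. In spite of the lower level, Mylpf held place 155 to 329 of all genes in the cold, after place 92 to 159 in the controls.

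Myl2, the regulatory light chain of slow fibres and the ventricle, was counted once in control replicate 1 and 2 times in control replicate 4, and had 0 counts in the other 6 libraries. It lay at or below the floor in all 8 libraries, did not enter the fit, and no fold change is given.

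**Figure D2:**
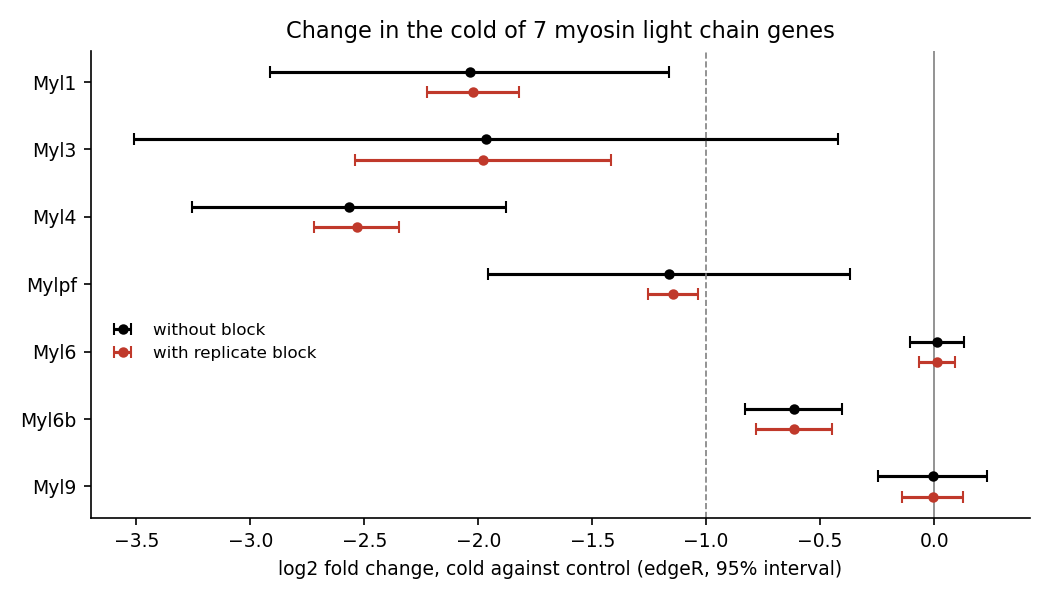
Log2 fold change of cold against control (x axis) for the 7 members tested, from edgeR without (black) and with (red) the replicate block. Bars are 95% intervals, the solid line marks no change and the dashed line the threshold of −1. The point estimates hardly differ between fits, the intervals of Myl1, Myl3, Myl4 and Mylpf narrow with the block, and those of Myl6 and Myl9 contain 0 in both.

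Myl6, the essential light chain shared by smooth muscle and non-muscle myosin, was at 1755, 1743, 2003 and 1768 TPM in the controls and at 1719, 1744, 1960.4 and 1960.8 TPM in the cold. The ranges of the groups lay almost on top of each other, and the gene held place 94 to 104 of all genes in all 8 libraries. Means of 1817 ± 124 and 1846 ± 133 TPM (SD, n = 4 each) gave an exact two-sided permutation p of 0.971. The log2 fold change was 0.01 ± 0.05 with a 95% interval of −0.11 to 0.13 (edgeR adjusted p = 0.999). With the block the interval was −0.07 to 0.09.

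Myl9, a regulatory light chain of smooth muscle and non-muscle myosin, was at 47.3, 48.4, 43.3 and 40.1 TPM in the controls and at 51.5, 42.8, 45.5 and 40.8 TPM in the cold. The order of the groups differed from pair to pair, and they overlapped over nearly their whole range. Its means were 44.8 ± 3.81 and 45.1 ± 4.65 TPM (SD, n = 4 each; exact two-sided permutation p = 0.914), and the log2 fold change was −0.01 ± 0.11 (95% interval −0.24 to 0.23, edgeR adjusted p = 0.999).

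Myl6b, an essential light chain close to Myl6 that is made in slow muscle as well as in non-muscle cells, stood apart from Myl6 and Myl9. It was at 69.2, 56.4, 56.0 and 57.9 TPM in the controls and at 35.5, 38.5, 43.3 and 40.6 TPM in the cold, and the lowest control was above the highest cold library. The means were 59.9 ± 6.27 and 39.5 ± 3.30 TPM (SD, n = 4 each; exact two-sided permutation p = 0.0286). Its log2 fold change of −0.62 ± 0.10 (95% interval −0.83 to −0.40) was short of the fold threshold, with an edgeR adjusted p of 0.0560 without the block and 3.41e-05 with it. DESeq2 gave an adjusted p of 1.79e-05. Beside the 4 sarcomeric genes it was the fifth member with a blocked adjusted p under 0.05, a threshold that 4.07% of all genes passed downward and 1.26% upward. Myl6b supplied 3.21 ± 0.442% of the summed TPM of Myl6 and Myl6b in controls and 2.09 ± 0.0772% in the cold.

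Members whose control and cold TPM did not overlap numbered 3 (Myl1, Myl4 and Myl6b), all lower in the cold. Over all genes tested, 2.41% were lower and 2.27% higher without overlap. At an unadjusted edgeR p under 0.05, 5 members were lower and 0 higher, against 4.13% and 2.57% of all genes tested. DESeq2 called 2 members lower (Myl1 and Myl4), against 0.472% of its 14394 genes, and 0 members and 0% of its genes higher.

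In order of mean TPM, the control SCs had Myl6 (1817), Mylpf (1474), Myl4 (387), Myl6b (59.9), Myl1 (47.7), Myl9 (44.8) and Myl3 (3.94). The ranges of Myl6 and Mylpf overlapped, with Mylpf above Myl6 in replicates 1 and 2 and below it in replicates 3 and 4, and those of Myl1 overlapped the ranges of Myl6b and Myl9. In the cold the order was Myl6 (1846), Mylpf (665), Myl4 (66.1), Myl9 (45.1), Myl6b (39.5), Myl1 (11.7) and Myl3 (1.01). There Mylpf lay below Myl6 in every library, and of the neighbours in that order only Myl9 and Myl6b had overlapping ranges.

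Summed over the sarcomeric members, control libraries held 2556, 2546, 1146 and 1404 TPM and cold libraries 891, 1049.6, 556 and 479.7 TPM. The sum of Myl6, Myl6b and Myl9 was 1922 ± 121 TPM in controls and 1931 ± 133 TPM in the cold (SD, n = 4 each). The sarcomeric share of the summed TPM of the 8 members with a row, which leaves out Myl12a and Myl12b, was therefore 57.7%, 57.9%, 35.3% and 42.9% in the controls and 33.0%, 36.5%, 21.4% and 19.0% in the cold. These shares overlapped between groups, since control replicate 3 lay below cold replicate 2, and every cold share lay below that of its own control. In bulk RNA, fewer cells that make sarcomeric light chains and less of their mRNA per cell cannot be told apart.

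**Figure D3:**
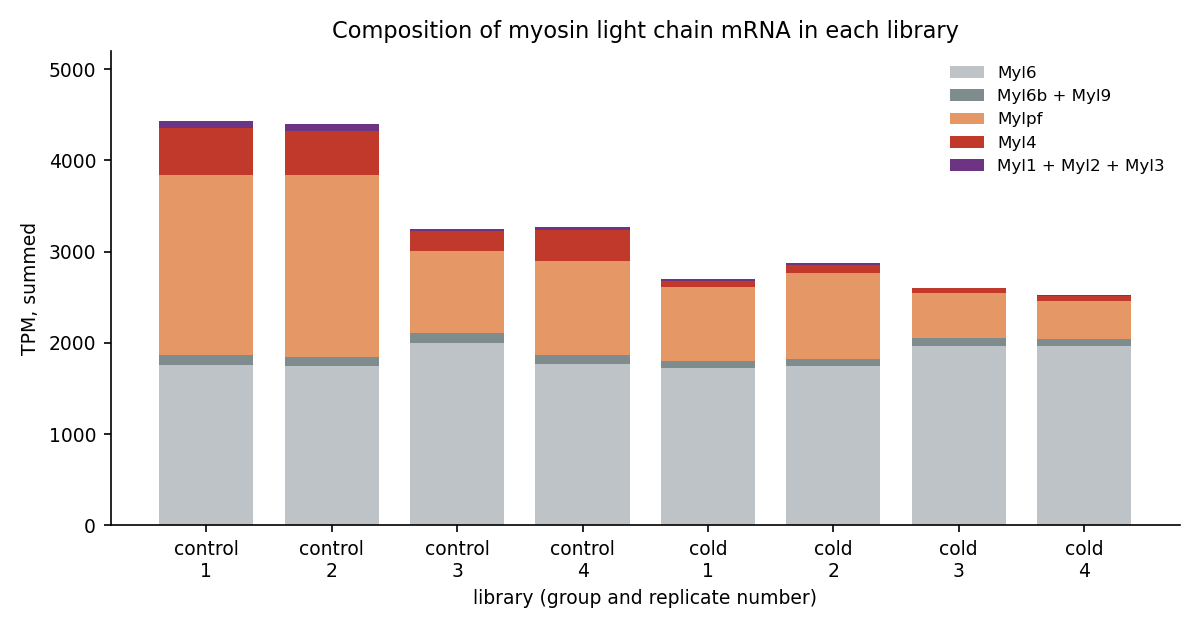
Summed TPM of the 8 light chains with a row (y axis) in each of the 8 libraries (x axis), stacked by gene. The grey part, Myl6 with Myl6b and Myl9, stays between 1806 and 2102 TPM, while the coloured sarcomeric part ranges from 479.7 to 2556 TPM.

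In these libraries the makeup of the sarcomeric part differed as well. The ratio of regulatory (Mylpf and Myl2) to essential (Myl1, Myl3 and Myl4) TPM was 3.31, 3.62, 3.74 and 2.79 in the controls and 9.28, 8.96, 7.75 and 7.02 in the cold. Every cold library was above every control. Mylpf over Myl4 alone was 3.81 ± 0.521 in controls and 9.82 ± 1.54 in the cold (SD, n = 4 each). Both ratios were chosen after the values were seen. The log2 ratios of all 21 pairs of tested members were compared by exact two-sided permutation, which leaves the replicate numbers out of account. Mylpf over Myl4 was 1 of 10 pairs at an exact p = 0.0286, the smallest possible. Adjusted over the 21 pairs this is 0.06, and 0 pairs passed. With so few libraries a pair can pass only if more of the 21 reach that smallest p. The count of 0 therefore says nothing about the ratios.

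The tested sarcomeric genes also varied most between replicates. The coefficients of variation of these 4 genes, without Myl2, were 36.2% to 70.3% in controls and 24.5% to 77.4% in the cold. Those of the 3 non-muscle genes were 6.84% to 10.5% and 7.19% to 10.3%. The mean of replicates 1 and 2 was 1.82 to 3.70 times that of replicates 3 and 4 in the controls for the 4 tested sarcomeric genes, and 1.48 to 5.00 times in the cold. For the non-muscle genes these folds were 0.928 to 1.15 and 0.882 to 1.09. Replicates 1 and 2 were thus the higher ones for every tested sarcomeric gene in both groups.

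Markers of other states and cell types were read beside these genes. The 10 markers of differentiating myocytes summed to 5554 to 10398 TPM in controls and 3841 to 6411 TPM in the cold, with all 10 having a negative log2 fold change (median −0.74). The sizes were uneven, from −1.90 for Acta1 to −0.38 for Mymx and −0.18 for Ttn without the block. In TPM, Ttn was slightly higher in the cold library of replicates 1 and 2. In the unblocked edgeR fit 0 of the 10 passed both thresholds and 6 had an unadjusted p under 0.05, against 4.13% of all genes. DESeq2 called 3 (Mymk, Acta1 and Mef2c), against 0.472%. With the block all 10 (Myog, Mymk, Mymx, Ckm, Acta1, Actc1, Tnnt2, Tnni1, Ttn and Mef2c) had an adjusted p under 0.05, against 4.07%, and 4 of them (Mymk, Ckm, Acta1 and Mef2c) passed both thresholds, against 0.808%. Their defining gene Myog was at 1008, 1016, 449 and 479.8 TPM in the controls and at 564, 628, 314 and 292 TPM in the cold, higher in replicates 1 and 2 of both groups, as were the sarcomeric light chains. The 7 SC and myoblast markers summed to 1770.2 to 2169 and 1690.1 to 1992 TPM. Of these, 3 were lower at a blocked edgeR adjusted p under 0.05, against 4.07% of all genes, and 0 were higher. They were Myod1 (log2 fold change −0.13, adjusted p = 0.0200), Cdh15 (−0.32, 1.2e-05) and Itga7 (−0.29, 1.1e-05). Without the block 5 of the 7 had a negative log2 fold change and 2 a positive one, Pax7 (0.08) and Myf5 (0.07). The sums were, for the 6 fibroblast markers with a row, 998 to 1509 and 984 to 1468 TPM, and for the 8 smooth muscle and pericyte markers 1400.4 to 2283 and 1262 to 1573 TPM. Of the latter 1 was lower by the blocked edgeR test, against 4.07% of all genes. It was Acta2 (−0.46, adjusted p = 2.7e-05), an actin of smooth muscle that is also made in developing skeletal muscle. Endothelial markers stayed at 1.96 to 3.87 and 2.01 to 3.63 TPM in sum, with Kdr at 0.06 TPM or less. Leukocyte markers summed to 38.6 to 93.6 and 41.0 to 101 TPM, nearly all of it from Cd68 and Cd14. The part of cell makeup in the light chain differences was not tested.

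Each heavy chain needs light chains, and the heavy chains of the sarcomere were read next. Of 10 listed, 7 had values and 3 were tested, with 0 called in the unblocked edgeR fit (0.0400% of all genes lower), 1 lower at an unadjusted p under 0.05 (4.13% of all genes) and 1 called lower by DESeq2 (0.472% of all genes), in both cases Myh3. Myh3, the embryonic heavy chain, was at 486, 457, 247 and 273 TPM in the controls and at 146, 179, 122 and 101 TPM in the cold, without overlap. Its log2 fold change was −1.45 ± 0.27 (edgeR adjusted p = 0.135), and with the block it was −1.41 ± 0.07 (adjusted p = 1.50e-10) and passed both thresholds. Myh1, a fast heavy chain, had −0.68 ± 0.31 (adjusted p = 0.776) and −0.64 ± 0.05 with the block (adjusted p = 1.20e-07). Myh4, another fast heavy chain, at a mean of 0.595 TPM in controls and 0.748 TPM in the cold, was higher in the cold library of all 4 pairs, with a log2 fold change of 0.32 ± 0.31 (adjusted p = 0.999) and 0.32 ± 0.16 with the block (adjusted p = 0.296). The expected counts of Myh3 and Myh1 held decimals in 8 and 7 libraries, as happens where reads are divided among genes, whereas those of all 8 light chain members were whole. Of the non-muscle and smooth muscle heavy chains, Myh9, Myh10 and Myh11 were tested, with 0 called in either edgeR fit or by DESeq2 and log2 fold changes of 0.10, 0.08 and 0.02 without the block. With at most 0.808% of all genes called in a direction, a count of 0 among 3 genes says nothing about them. Myh9 alone had an unadjusted p under 0.05, in the upward direction, against 2.57% of all genes.

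The enzymes that phosphorylate and dephosphorylate the regulatory light chains, with their regulators, were read from a list of 19 genes. All 19 had values and 17 were tested, 7 with a negative and 10 with a positive log2 fold change, and the median was 0.0036. In both edgeR fits and in DESeq2, 0 passed both thresholds, which 0.0400% (unblocked), 0.808% (block) and 0.472% (DESeq2) of all genes passed downward, so that about 0 calls would be met in any 17 genes. Ppp1r12b, a targeting subunit of the phosphatase, was the 1 gene with an unadjusted edgeR p under 0.05 without the block, in the downward direction, near the 4.13% of all genes. Mylk, the calmodulin-dependent kinase of smooth muscle and non-muscle cells, was at 80.8, 80.2, 50.1 and 56.5 TPM in the controls and at 87.1, 87.4, 47.8 and 54.5 TPM in the cold. Like the sarcomeric light chains it was higher in replicates 1 and 2, but its log2 fold change was 0.01 ± 0.25 without the block and its blocked 95% interval was −0.08 to 0.08.

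With the block, 3 of the 17 had an edgeR adjusted p under 0.05, 2 lower (Mylk4 and Ppp1r12b) and 1 higher, all short of the fold threshold, against 4.07% lower and 1.26% higher over all genes. Mylk4, a striated muscle relative of Mylk, was at 3.62, 3.55, 0.67 and 0.91 TPM in the controls and at 1.55, 1.92, 0.72 and 0.40 TPM in the cold, with a blocked log2 fold change of −0.93 ± 0.16 (adjusted p = 0.000755). In replicate 3 the cold library was slightly above its control. Ppp1r12b had −0.23 ± 0.06 (adjusted p = 0.0160).

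**Figure D4:**
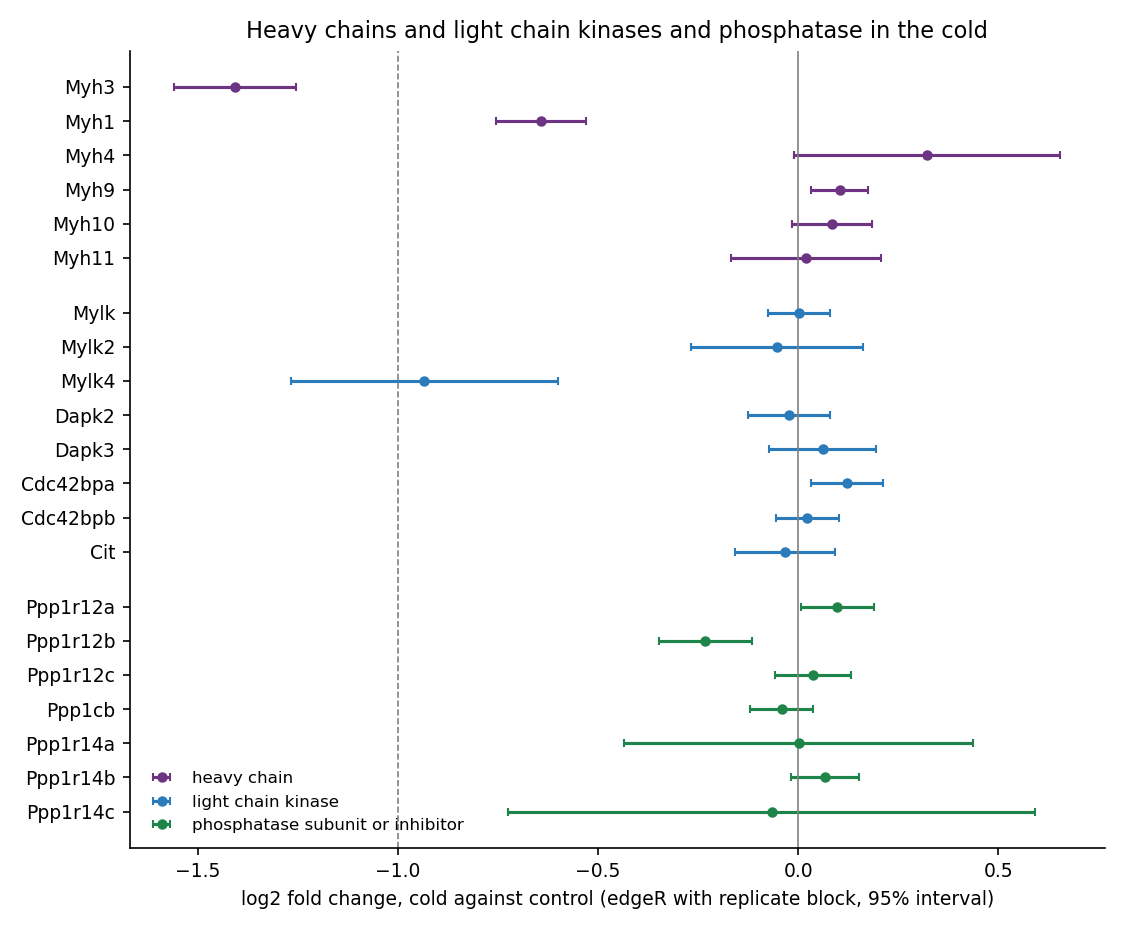
Log2 fold change of cold against control (x axis) with 95% intervals, from edgeR with the replicate block, for the tested heavy chains (purple), light chain kinases (blue, 8 of the 10 tested) and subunits or inhibitors of the light chain phosphatase (green). The solid line marks no change and the dashed line the threshold of −1, and Myh3 is the 1 gene whose whole interval lies beyond it.

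The other light chain genes looked for add little. Myl7 and Myl10 were at 3 counts or fewer in every library, and Myl5 matched no row.

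Genes whose log2 TPM followed each member most closely over the 8 libraries were ranked by Pearson's r among 11471 genes with a mean of at least 1 TPM. The libraries share their 2 groups and 4 replicate numbers, so a high r only says that a gene was set apart by group and number in the same proportions. For Myl1 the 3 highest were Myh3 (r = 0.996), LOC101825198 (0.995) and Stac2 (0.994), for Myl4 Klhl13 (0.995), Myom3 (0.995) and Slc22a3 (0.994), for Mylpf Akap6 (0.996), Mybph (0.994) and Svil (0.993), and for Myl3 Necab3 (0.990), Hspb8 (0.985) and Itga7 (0.985). For Myl6b they were Tmem182 (0.999), Prkag3 (0.988) and Cryab (0.976). For Myl6 they were Atp6v1f (0.992), Gnai2 (0.986) and Gps2 (0.982), and for Myl9 Plekha2 (0.967), Ccr7 (0.964) and Slc35a4 (0.950). A like pattern did not mean a like size of change, since Myom3 and Slc22a3 had log2 fold changes of −2.08 and −2.34 and Klhl13, with as high an r to Myl4, one of −0.37.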

How the data were processed

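Poly(A) RNA of 4 control and 4 cold libraries of hamster SCs was sequenced by BGI for the submitters, whose processing notes name HISAT and HISAT2 without a role. The counting program and the genome build are not given in the sources used here, so no coordinates are printed. The authors deposited 1 table with an expected count (estimated reads per gene, not normalized), a TPM value (scaled within each library, rounded) and a normalized count, a signal scaled by the authors and not used in any test. All 17590 gene identifiers with values matched RefSeq, used for names only. Depth was 16530747 to 18533801 expected counts per library. The floor of 3 counts covers counting error only.

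Expected counts were rounded and fitted over the whole table with edgeR 4.0.16 in R 4.3.3 (filterByExpr, TMM, quasi-likelihood F test), with Benjamini-Hochberg adjustment over 12506 genes. For each member, mean TPM was compared by exact two-sided permutation over the 70 arrangements. Replicate numbers stand in titles and column names. Deviations of same-numbered libraries from their group means correlated at 0.609, 0.618, 0.647 and 0.659, those of other numbers between −0.609 and 0.591. Across numbers, replicates 1 and 2 correlated at 0.569 and 0.591, and replicates 3 and 4 at 0.432 and 0.472. Each library was most like the one of its own number, by a small margin in replicates 1 and 2. The numbers were taken to pair the libraries. Alternatives were DESeq2 1.42.0, limma 3.58.1 on log2(TPM + 0.1) and other pseudocounts, other scalings and filters, the block, replicates 1 and 2 or 3 and 4 alone, and leaving out each library. The scripts were tested on simulated data. Python 3.11.15 and matplotlib 3.10.9 were used for figures.

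Members and gene lists were chosen with earlier results of these data known. Named genes are the members, list genes that passed a threshold or make up a count of 5 or fewer, and the 3 genes most like each member. Listed genes given for the level of their group (Mylk, Myog and the defining markers) were named after their values were seen. Values of 2 kinases of the list, 1 of which passed the blocked adjusted p, are not reported here.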

Additional observations from a re-analysis of the deposited data

Results flagged for a closer look

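Among the 15 groups of 4 values examined, 1 for each member and group with values above 0, 2 had a library far from the others, where chance gives about 0.75. Myl6 in control replicate 3 was at 2002.94 TPM, 0.904 of the group's range away from the next library, and without it the edgeR log2 fold change was 0.04 (adjusted p = 0.956). Myl6b in control replicate 1 was at 69.22 TPM, 0.857 of the range away from the next. Without it the unblocked edgeR log2 fold change was −0.53 (adjusted p = 0.122), against −0.62 (0.0560) with all libraries. In the blocked edgeR fit without pair 1, a setting added after seeing the data, it was −0.49 (adjusted p = 2.26e-05).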

How the results depend on the processing

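Genes lower by both thresholds numbered 5 in the unblocked edgeR fit, 68 in DESeq2, 8 with library totals, 15 with every gene of at least 1 count, 3 with a mean of 10 counts in each group, 101 with the replicate block, 3 with limma at each of the pseudocounts 0.1, 1 and 0.01, 175 in replicates 1 and 2 alone, 27 in replicates 3 and 4 alone, 9 with no fold threshold, and 0 to 33 when a library was left out. Genes higher numbered 0, against 5 with the block, 8 in replicates 1 and 2, 1 in replicates 3 and 4, and 0 to 1 when a library was left out. Light chains called lower numbered 1, against 2 in DESeq2, 4 in replicates 1 and 2, 3 in replicates 3 and 4 and 0 to 2 when a library was left out, with 0 for every library but control replicate 3. With the block 4 were called, also with library totals, RLE factors or any pair left out, settings added after seeing the data. Heavy chains called lower numbered 0, and 1 with the block, which changed no call of the kinases and phosphatase.

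Over 26 settings the log2 fold change ranged from −2.78 to −2.36 for Myl4, −2.28 to −1.81 for Myl1, −1.40 to −0.98 for Mylpf and −0.80 to −0.44 for Myl6b, and over 24 from −2.39 to −1.20 for Myl3, which failed the filter in replicates 3 and 4 and at a mean of 10 counts. Both genes near 0 changed sign, Myl6 at −0.048 in replicates 1 and 2, −0.039 with the block without pair 4 and −0.013 to 0.039 when a library was left out, and Myl9 at 0.010 in every limma setting, 0.057 in replicates 3 and 4, 0.060 with the block without pair 2 and −0.084 to 0.042 when a library was left out. The causes were not tested. Depth limits Myl3 and Myl2.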
